A study of Mus musculus with 19 samples.

Results

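MMERVK10 is a group of mouse endogenous retroviruses of the ERVK class, and RLTR10 is the name of a set of long terminal repeats (LTRs) of the same class. The RNA of these elements was followed through every retrotransposon subfamily whose name starts with MMERVK10 or RLTR10, which gave 10 of the 259 subfamilies measured. MMERVK10C is the internal region of one such retrovirus and RLTR10C is its LTR. They are called the C members here and were set against the other 8, which were MMERVK10D3_I, MMERVK10D3_LTR, RLTR10, RLTR10A, RLTR10B, RLTR10B2, RLTR10D and RLTR10E.

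An endogenous retrovirus of this kind is built from an internal region, which codes for gag and pol proteins, flanked by LTRs that carry the promoter and the polyadenylation signal. Repeat databases store the consensus of the internal region and that of the LTR separately, so both parts of the same retrovirus are counted as separate subfamilies, and LTRs that have lost their internal region through recombination are counted with the LTR. In male germ cells such elements are repressed by DNA methylation, by histone methylation and by PIWI-interacting small RNAs (piRNAs). DNMT3L is a cofactor of the *de novo* DNA methyltransferases in prospermatogonia, and PLD6 is a mitochondrial protein needed to make piRNAs.

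The RNA came from EpCAM-positive spermatogonia, the mitotic germ cells of the testis, sorted at postnatal day 7 from mice of 2 mutant lines on a C57BL/6J background. The *Dnmt3l* line gave 2 *Dnmt3l*+/+ (wild-type), 3 *Dnmt3l*+/- (heterozygous) and 3 *Dnmt3l*-/- (KO) libraries, and the *Pld6* line gave 3 *Pld6*+/+, 3 *Pld6*+/- and 5 *Pld6*-/- libraries, each labelled as a biological replicate. Each line had wild types of its own, and the libraries were made from poly(A) RNA. The study's methods give 3 wild-type and 2 heterozygous *Dnmt3l* mice, and the labels were followed. Levels are in RPM, the number of reads scaled to the mapped reads of the library. They are not corrected for length, so ratios and shares between subfamilies were compared only between groups of libraries and do not rank the subfamilies by transcript number.

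Only retrotransposons were measured in the values used, so germ cell markers and the targeted genes were not analysed here. In bulk RNA fewer expressing cells and less RNA per cell cannot be told apart. The summed RPM of all subfamilies was 7178 to 14603 in the 8 KO libraries and 2104 to 4413 in the 11 others. *Pld6* heterozygous replicate 1 stood apart, with 159 subfamilies listed at 0 against 60 to 90 in the other 18 libraries, and 5 of the 10 members were among those at 0. The KO comparisons were made against wild type, and calls that moved without this library are given beside them. The total depth of the libraries is unknown, so no counting interval could be given.

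MMERVK10C, the internal region of the C retrovirus, rose in both mutants. In *Dnmt3l* KO its level was 1243, 1276 and 1433 RPM in the 3 libraries, whereas the wild-type libraries had 160 and 181 RPM and the heterozygous ones 168, 235 and 152 RPM. In *Pld6* KO it was at 376, 314, 548, 384 and 600 RPM, with 124, 126 and 169 RPM in wild type and 235, 178 and 154 RPM in heterozygotes. All 8 KO libraries lay above all 11 libraries with a functional allele, and every *Dnmt3l* KO library lay above every *Pld6* KO library. The fold change of group means, taken on RPM + 1, was 7.69 in *Dnmt3l* KO and 3.16 in *Pld6* KO. Single *Pld6* KO libraries ranged from 2.24-fold to 4.27-fold, a wider spread than the 7.26-fold to 8.36-fold of *Dnmt3l* KO.

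The comparison was made with limma on log2(RPM + 1), with p-values adjusted over all 114 subfamilies that passed a filter of at least 1 RPM in at least 2 libraries. The log2 fold change of MMERVK10C was 2.94 in *Dnmt3l* KO (standard error 0.28, adjusted p = 3.6e-08) and 1.63 in *Pld6* KO (standard error 0.22, adjusted p = 3.9e-06). These differences exceeded the spread between libraries with each library left out in turn.

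**Figure D1:**
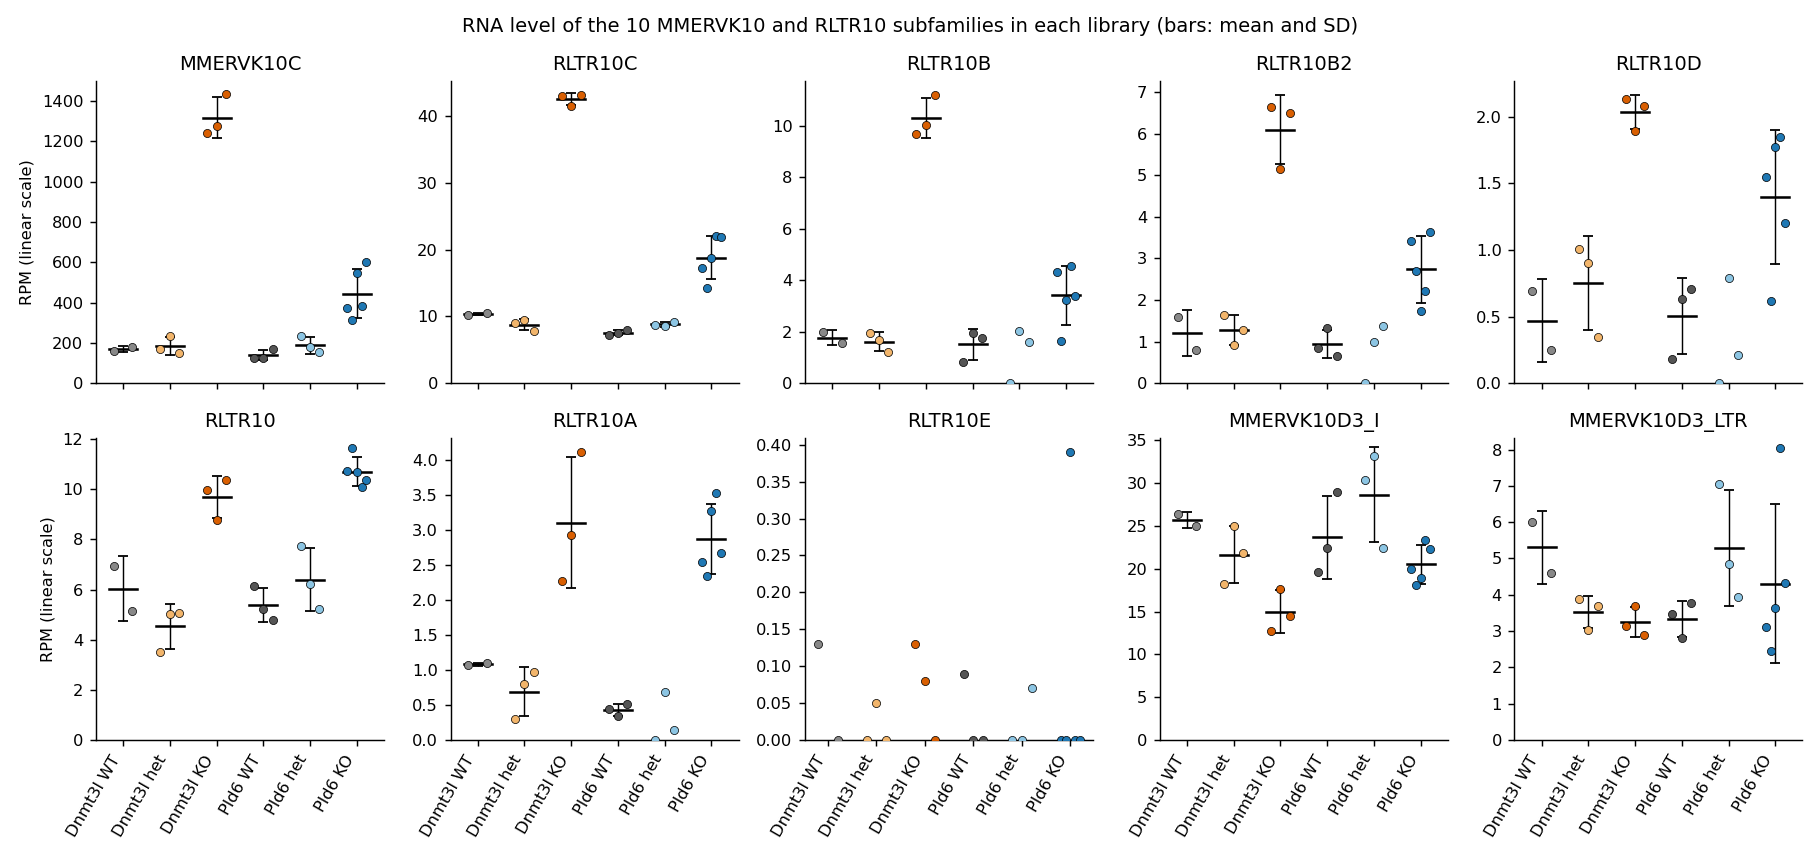
RPM of the 10 subfamilies in each of the 19 libraries, on linear axes that start at 0 and differ between panels. Points are libraries, horizontal lines are group means and vertical bars SDs, drawn only for groups with no library listed at 0. MMERVK10C, RLTR10C, RLTR10B and RLTR10B2 are highest in all 3 *Dnmt3l* KO libraries, RLTR10 and RLTR10A reach similar levels in both KOs, and MMERVK10D3_I is lowest in *Dnmt3l* KO.

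RLTR10C, the LTR and promoter of the same retrovirus, rose with its internal region but by a smaller factor. It was at 43.0, 41.5 and 43.1 RPM in *Dnmt3l* KO, against 10.2 and 10.5 RPM in wild type and 9.01, 9.46 and 7.85 RPM in heterozygotes. The *Pld6* KO libraries had 17.3, 14.2, 18.7, 22.0 and 21.8 RPM, against 7.19, 7.59 and 7.95 RPM in wild type and 8.79, 8.50 and 9.24 RPM in heterozygotes. The *Dnmt3l* KO libraries, the *Pld6* KO libraries and the others fell into 3 ranges that did not overlap. Folds were 3.84 and 2.31, and log2 fold changes were 1.94 (standard error 0.18, adjusted p = 3.1e-08 from limma) and 1.19 (standard error 0.14, adjusted p = 8.3e-07).

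The LTR was compared with its internal region as a ratio within each library, taken on RPM + 1, so that the scaling to the library total enters only through the added 1. In *Dnmt3l* KO, RLTR10C stood at 0.0307 to 0.0353 of the MMERVK10C value, on RPM + 1, against 0.0629 to 0.0698 in wild type. The 3 KO libraries lay below both wild types, and the log2 difference was -1.0. An exact permutation test, two-sided as are all such tests here, gave p = 0.2, the smallest that 3 against 2 libraries allow. With the heterozygous libraries added to the controls the difference was -0.82 (exact permutation p = 0.0357, adjusted p = 0.0714 over 6 ratio comparisons). The unadjusted p was again the smallest that these group sizes allow. In *Pld6* KO the ratio was 0.0359 to 0.0597 and overlapped with wild type, at 0.0525 to 0.0674. The log2 difference of -0.44 did not pass the test (exact permutation p = 0.0714, adjusted p = 0.214).

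The other internal region, MMERVK10D3_I, fell in *Dnmt3l* KO and did not pass the threshold in *Pld6* KO. It was at 12.7, 17.7 and 14.5 RPM in *Dnmt3l* KO, below both wild types at 26.3 and 25.0 RPM and all 3 heterozygous libraries at 18.2, 24.9 and 21.8 RPM. The log2 fold change, -0.75 (95% interval -1.19 to -0.31, adjusted p = 0.00797 from limma), corresponded to a mean 1.67-fold higher in wild type than in KO. Without *Dnmt3l* wild-type replicate 1 it was -0.72, with an adjusted p of 0.063. Only 1 other subfamily fell in this comparison, the SINE B2_Mm2.

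In the *Pld6* line MMERVK10D3_I was at 19.9, 18.1, 18.9, 23.4 and 22.3 RPM in KO, within the 19.6, 22.4 and 29.0 RPM of wild type apart from the values of 18.1 and 18.9 RPM. Heterozygotes had 30.3, 33.2 and 22.5 RPM. The log2 fold change of -0.19 did not pass the threshold, and its 95% interval was -0.54 to 0.17 (adjusted p = 0.487 from limma). Set against the heterozygous libraries instead it was -0.45 (adjusted p = 0.0365), and without *Pld6* heterozygous replicate 1 this was -0.40 and no longer past the threshold (adjusted p = 0.124).

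MMERVK10D3_LTR, the LTR of the D3 retrovirus, passed the threshold in neither mutant when all libraries were fitted together without rescaling. *Dnmt3l* KO libraries had 3.13, 3.70 and 2.89 RPM, below the wild types at 6.01 and 4.60 RPM but within the range of the heterozygotes at 3.88, 3.04 and 3.69 RPM apart from the lowest. *Pld6* KO libraries had 3.10, 2.45, 3.64, 8.03 and 4.33 RPM, with 3.46, 2.80 and 3.77 RPM in wild type and 7.05, 4.84 and 3.95 RPM in heterozygotes. The KO and wild-type libraries of the *Pld6* line overlapped, and KO replicate 4 was the highest of all 19 libraries. The log2 fold changes were -0.57 (95% interval -1.23 to 0.10, adjusted p = 0.169 from limma) and 0.21 (95% interval -0.32 to 0.74, adjusted p = 0.605), and the direction in *Pld6* KO turned under several settings, rescaling among them. With only the groups compared in the fit, the fall of 0.57 in *Dnmt3l* KO passed (adjusted p = 0.0269). After rescaling, MMERVK10D3_LTR was at -1.08 in *Dnmt3l* KO and passed as well (adjusted p = 0.0235 from limma). Its ratio to MMERVK10D3_I moved by 0.18 in *Dnmt3l* KO and by 0.40 in *Pld6* KO on the log2 scale (exact permutation p = 0.6 and 0.107).

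The contrast between the internal regions was also taken within libraries. MMERVK10C was at 68.3 to 92.3 times MMERVK10D3_I in *Dnmt3l* KO, on RPM + 1, and at 5.87 to 7.01 times in wild type and 6.70 to 9.09 times in heterozygotes. In *Pld6* KO it was at 15.8 to 27.5 times, with 5.44 to 6.07 times in wild type and 5.23 to 7.53 times in heterozygotes. Neither KO overlapped with its controls, and the ranges of both KOs were apart. The log2 difference from wild type was 3.69 in *Dnmt3l* KO (exact permutation p = 0.2, the smallest possible) and 1.82 in *Pld6* KO (exact permutation p = 0.0357, also the smallest possible, adjusted p = 0.214). With heterozygotes added to the controls, the differences were 3.49 (exact permutation p = 0.0357, adjusted p = 0.0714) and 1.74 (exact permutation p = 0.00433, adjusted p = 0.026). Both unadjusted p-values were again the smallest possible for these group sizes.

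**Figure D2:**
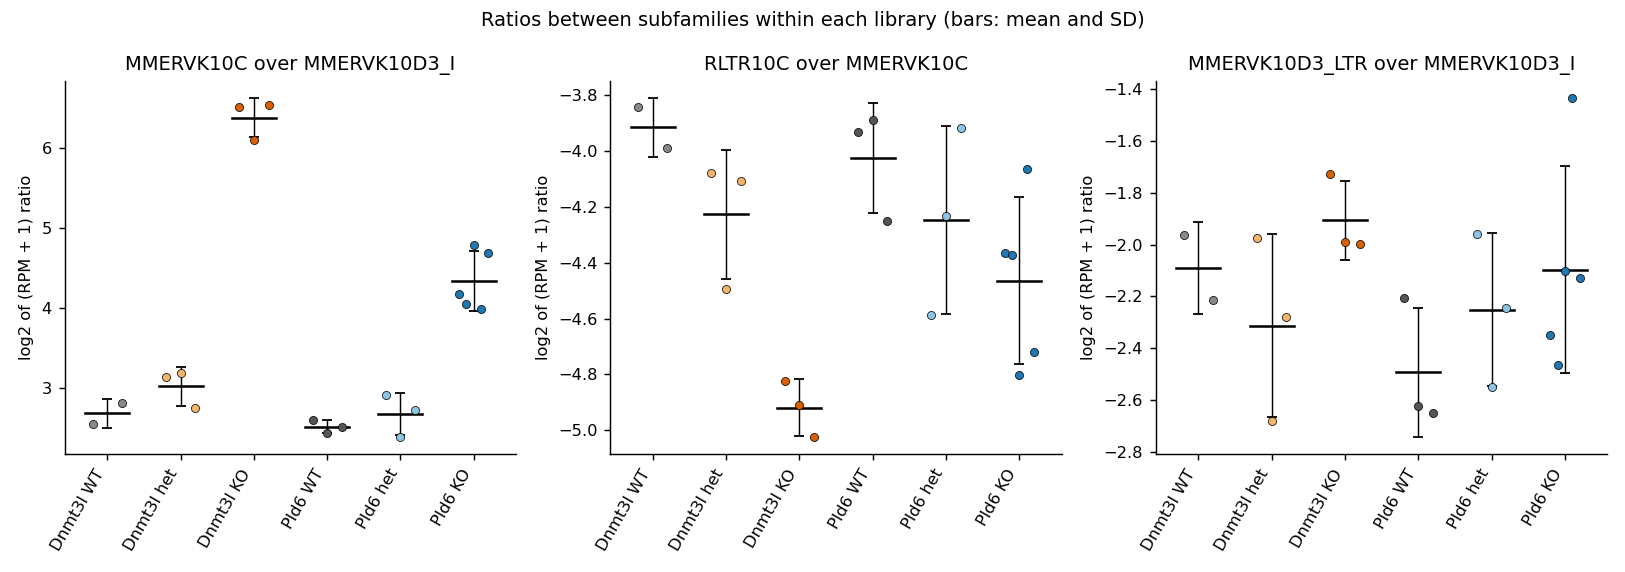
Log2 ratios between pairs of subfamilies within each library, taken on RPM + 1 (points, libraries; lines, group means; bars, SD). The ratio of MMERVK10C to MMERVK10D3_I rises in both KOs without overlap with controls, the ratio of RLTR10C to MMERVK10C falls by 1.0 in *Dnmt3l* KO, and the ratio of the D3 LTR to its internal region overlaps between groups. The axes are logarithmic and do not start at 0.

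Among the remaining LTRs, RLTR10B and RLTR10B2 followed the C members in *Dnmt3l* KO. RLTR10B was at 9.70, 10.04 and 11.2 RPM in *Dnmt3l* KO, against 1.99 and 1.56 RPM in wild type and 1.94, 1.70 and 1.21 RPM in heterozygotes. On the log2 scale RLTR10B rose by 2.03 (standard error 0.39, adjusted p = 2.5e-04 with limma), beside 1.94 for RLTR10C. *Pld6* KO libraries held 4.31, 1.63, 3.22, 4.56 and 3.40 RPM, with 0.84, 1.95 and 1.78 RPM in wild type and 0, 2.03 and 1.60 RPM in heterozygotes. Replicate 2 alone lay within the wild-type range, and the log2 fold change of 0.79 missed the threshold (standard error 0.31, adjusted p = 0.0618 from limma). It was 0.97 without *Pld6* KO replicate 2 (adjusted p = 0.0157), and the adjusted p was 0.00706 when *Pld6* heterozygous replicate 1 was left out of the fit.

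RLTR10B2 rose in both mutants. It was at 6.64, 5.14 and 6.49 RPM in *Dnmt3l* KO, with 1.59 and 0.81 RPM in wild type and 1.64, 0.92 and 1.28 RPM in heterozygotes. The *Pld6* KO libraries had 3.43, 2.69, 1.73, 2.22 and 3.63 RPM, above the wild types at 0.84, 1.32 and 0.66 RPM and the heterozygotes at 0, 0.99 and 1.37 RPM. No KO library overlapped with controls in either line. The log2 fold changes were 1.70 (standard error 0.32, adjusted p = 2.3e-04 from limma) and 0.93 (standard error 0.26, adjusted p = 0.00672). The latter lost its call on a pseudocount of 0.1 (adjusted p = 0.104) and after rescaling (adjusted p = 0.0851).

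RLTR10 and RLTR10A rose in both mutants, to levels that overlapped. RLTR10A was at 2.27, 2.93 and 4.12 RPM in *Dnmt3l* KO, against 1.07 and 1.10 RPM in wild type and 0.30, 0.80 and 0.97 RPM in heterozygotes. The 5 *Pld6* KO libraries were at 2.55, 2.35, 3.28, 3.53 and 2.68 RPM, against 0.44, 0.34 and 0.51 RPM in wild type and 0, 0.69 and 0.14 RPM in heterozygotes. The KO libraries of both lines overlapped with each other and with no control library. On the log2 scale RLTR10A rose by 0.95 in *Dnmt3l* KO (standard error 0.25, adjusted p = 0.00529 from limma) and 1.43 in *Pld6* KO (standard error 0.20, adjusted p = 5.6e-06). The former lost its call on a pseudocount of 0.1 (adjusted p = 0.102) and after rescaling.

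RLTR10 was at 9.99, 8.76 and 10.4 RPM in *Dnmt3l* KO, with 6.95 and 5.13 RPM in wild type and 3.51, 5.04 and 5.08 RPM in heterozygotes. In *Pld6* KO it was at 10.7, 11.7, 10.7, 10.1 and 10.4 RPM, with 6.13, 5.21 and 4.79 RPM in wild type and 7.72, 6.22 and 5.24 RPM in heterozygotes. All 8 KO libraries lay above the 11 others, the *Pld6* KO libraries in a narrow range. On the log2 scale RLTR10 rose by 0.61 in *Dnmt3l* KO (standard error 0.21, adjusted p = 0.0242 from limma) and 0.88 in *Pld6* KO (standard error 0.17, adjusted p = 1.7e-04). Neither call held after rescaling (adjusted p = 0.959 and 0.0811). The call in *Dnmt3l* KO was lost without *Dnmt3l* wild-type replicate 2 (0.43, adjusted p = 0.242), KO replicate 1 (0.59, adjusted p = 0.0592) or KO replicate 3 (0.57, adjusted p = 0.071).

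RLTR10D was a low member that reached about 2 RPM at most. *Dnmt3l* KO libraries had 2.13, 1.89 and 2.08 RPM, above 0.69 and 0.25 RPM in wild type and 1.01, 0.90 and 0.35 RPM in heterozygotes. *Pld6* KO libraries had 1.55, 0.62, 1.77, 1.85 and 1.20 RPM, with 0.18, 0.63 and 0.71 RPM in wild type and 0, 0.79 and 0.21 RPM in heterozygotes, and KO replicate 2 lay among the controls. Among controls only *Dnmt3l* heterozygous replicate 1, at 1.01 RPM, reached the 1 RPM of the filter. RLTR10D thus entered the test through its KO libraries, where it was high. The log2 fold changes were 1.06 (standard error 0.28, adjusted p = 0.0053 from limma) and 0.66 (standard error 0.23, adjusted p = 0.0288). The first was lost without *Dnmt3l* wild-type replicate 2 (0.84, adjusted p = 0.0897). The second was lost without *Pld6* wild-type replicate 1 (0.49, adjusted p = 0.206) or without KO replicate 1, 3 or 4 (0.63, 0.60 and 0.59, adjusted p = 0.0594, 0.0618 and 0.0684). It was also lost with a pseudocount of 0.1 (adjusted p = 0.113), with no filter (adjusted p = 0.0789) and after rescaling (adjusted p = 0.149). Rescaling removed the call in *Dnmt3l* KO as well (0.70, adjusted p = 0.0781 from limma).

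RLTR10E was below 1 RPM in every library, was listed at 0 in 12 of 19, and was not tested. Its highest value was 0.39 RPM, in *Pld6* KO replicate 3.

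Counted over the 9 tested members, 7 rose, 1 fell and 1 did not pass in *Dnmt3l* KO, where 38.6% of all 114 tested subfamilies rose and 1.75% fell. In *Pld6* KO 6 rose, none fell and 3 did not pass, against 30.7% and 0% of all tested, and at an unadjusted p under 0.05 the counts were 7 and 0, with 43 and 1 of the 114. The median log2 fold change of the 9 members was 1.06 and 0.88, beside 0.50 and 0.26 for all tested subfamilies. Among the risers in both mutants was RLTR10D, which passed the filter only through its KO libraries. Its value was the *Dnmt3l* KO median of 1.06. The KO libraries lay wholly above wild type for 7 of the 9 and wholly below for 2 in *Dnmt3l* KO (67.5% and 7.89% of all tested). In *Pld6* KO they lay wholly above for 5 and below for none (35.1% and 0.877%).

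These counts depended on the scaling. Libraries were also rescaled by the median ratio of 33 well-expressed retrotransposon subfamilies, MMERVK10C, RLTR10C and MMERVK10D3_I among them. The factors were 1.09 to 1.44 in KO libraries and 0.66 to 0.95 in the others. This takes the typical retrotransposon as unchanged in KO, which was not tested, and so removes a general rise. The median log2 fold change of all tested subfamilies then moved from 0.50 to -0.02 in *Dnmt3l* KO and from 0.26 to -0.14 in *Pld6* KO. The members then counted 4 up and 2 down in *Dnmt3l* KO and 3 up and 1 down in *Pld6* KO. Over all 114 the counts became 27 up and 9 down, and 29 up and 16 down, so falls were more frequent in general. MMERVK10C, RLTR10C, RLTR10B and RLTR10B2 stayed up in *Dnmt3l* KO, at 2.28, 1.30, 1.48 and 1.20. In *Pld6* KO MMERVK10C, RLTR10C and RLTR10A stayed up, at 1.11, 0.71 and 1.16. MMERVK10D3_I was down in both, at -1.38 and -0.68 (adjusted p = 3.7e-05 and 0.00351 from limma), and MMERVK10D3_LTR was down in *Dnmt3l* KO, at -1.08 (adjusted p = 0.0235). RLTR10 no longer rose in *Dnmt3l* KO, at 0.02 (adjusted p = 0.959). In *Pld6* KO it was at 0.42 and no longer past the threshold (adjusted p = 0.0811 from limma).

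**Figure D3:**
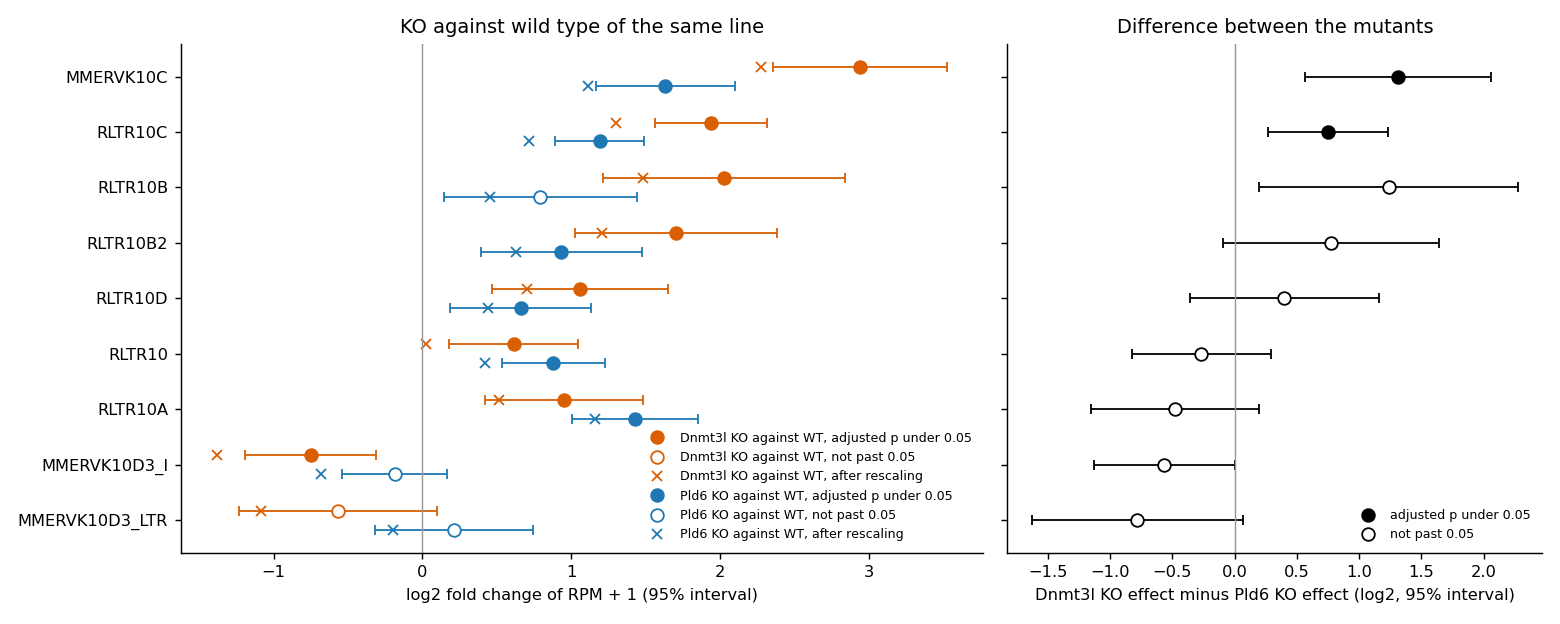
Left, log2 fold changes of RPM + 1 in *Dnmt3l* KO (orange) and *Pld6* KO (blue) against wild type of the same line for the 9 tested members, with 95% intervals from limma (filled, adjusted p under 0.05; open, not past it; crosses, value after rescaling). Right, the difference between the effects in the 2 mutants. MMERVK10C and RLTR10C have filled points in all 3 comparisons, and MMERVK10D3_I lies below 0 in *Dnmt3l* KO.

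The size of the response in the 2 mutants was compared as the *Dnmt3l* KO effect minus the *Pld6* KO effect, each against wild type of its own line. Of the 9 members 2 passed the threshold upwards and none downwards, with 7.89% and 4.39% of all tested subfamilies called in those directions. They were the C members, MMERVK10C with a difference of 1.31 (standard error 0.36, adjusted p = 0.0216 from limma) and RLTR10C with 0.75 (standard error 0.23, adjusted p = 0.0400).

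The MMERVK10C difference kept its call in 9 of 13 fits that each left out 1 library. Its adjusted p was 0.127 and 0.0562 when the first and the second *Dnmt3l* wild type were left out, and 0.0571 for *Dnmt3l* KO replicate 3 and 0.0532 for *Pld6* wild-type replicate 3. The RLTR10C difference was past the threshold in 3 of those 13 fits, namely those without *Pld6* KO replicate 2, 4 or 5. For RLTR10B the difference was 1.24 (95% interval 0.19 to 2.28, adjusted p = 0.117), and it passed when *Pld6* heterozygous replicate 1 was left out (adjusted p = 0.0186). For RLTR10A it was -0.48 (95% interval -1.16 to 0.20) and for RLTR10 -0.27 (95% interval -0.82 to 0.29), neither past the threshold. MMERVK10D3_I had -0.57 (adjusted p = 0.177) and MMERVK10D3_LTR -0.78 (adjusted p = 0.214). The values were 0.77 for RLTR10B2 (adjusted p = 0.23) and 0.40 for RLTR10D (adjusted p = 0.563).

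Taking the levels in order, *Dnmt3l* KO was highest and did not overlap with *Pld6* KO, the next group, for MMERVK10C, RLTR10C, RLTR10B, RLTR10B2 and RLTR10D. RLTR10A had the same order with overlap, and RLTR10 had *Pld6* KO first, also with overlap. MMERVK10D3_I had its highest mean in *Pld6* heterozygotes and its lowest in *Dnmt3l* KO, which overlapped with no other group. The 4 control groups overlapped with their neighbours for MMERVK10C, RLTR10, RLTR10B, RLTR10B2 and RLTR10D. For RLTR10C the *Dnmt3l* wild types lay above all *Pld6* heterozygous libraries, and for RLTR10A above the *Dnmt3l* heterozygous ones.

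The C members made up a larger part of the summed RPM of the 10 in KO than in control libraries. Their part was 81.2% ± 2.95 (SD, n = 2) in *Dnmt3l* wild type and 96.5% ± 0.146 (SD, n = 3) in KO, and 80.4% ± 0.875 (SD, n = 3) in *Pld6* wild type and 90.6% ± 2.12 (SD, n = 5) in KO. Every KO library was above every control library, and the gains were 15.3 and 10.2 percentage points. MMERVK10C carried nearly all of the added RPM of the C members. It gained 1147 RPM in *Dnmt3l* KO and 305 RPM in *Pld6* KO over wild type. The gain of RLTR10C was 32.2 and 11.2 RPM, or 2.81% and 3.69% of that of MMERVK10C, so the larger part is not a trait of RLTR10C by itself. The other 8 together were at 41.6 ± 4.47 RPM in wild type and 49.5 ± 2.57 RPM in KO of the *Dnmt3l* line, and at 35.8 ± 4.91 and 46.1 ± 5.28 RPM in the *Pld6* line. These sums are a description and were not tested.

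**Figure D4:**
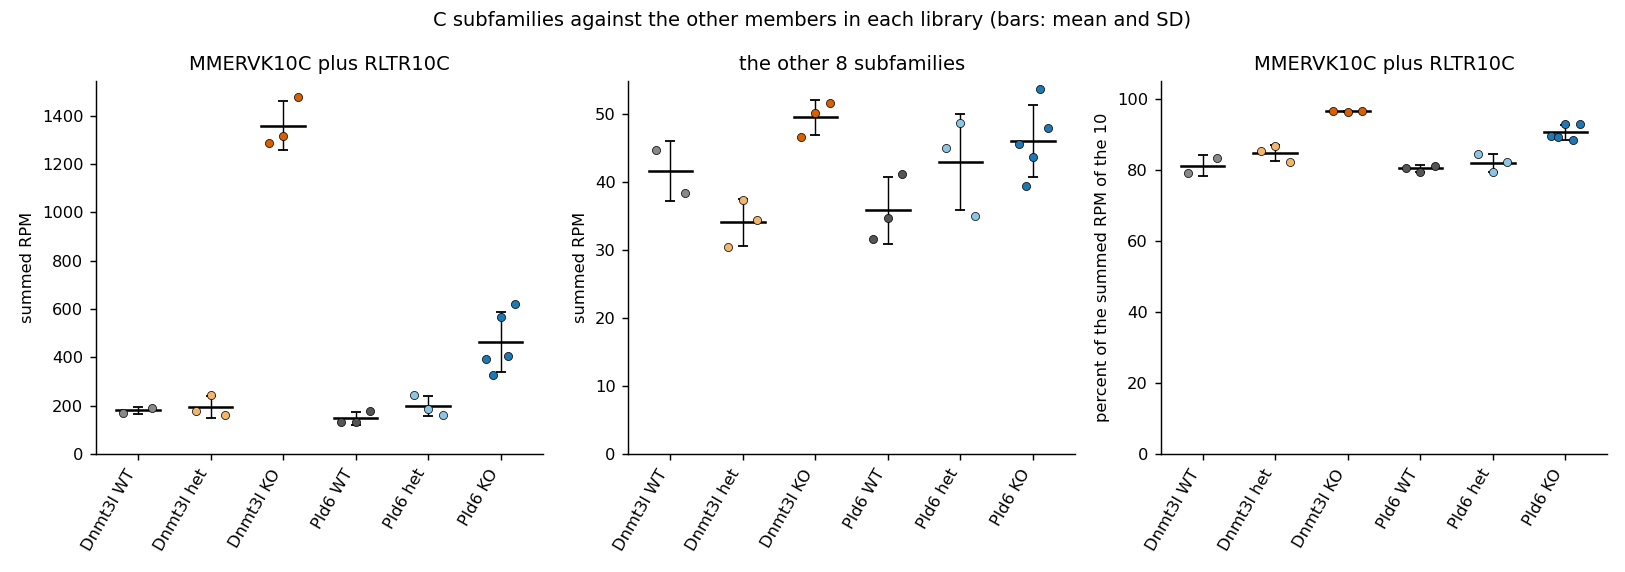
Summed RPM of MMERVK10C and RLTR10C, summed RPM of the other 8 subfamilies, and the percent of the summed RPM of all 10 that the C members made up, in each library (points, libraries; lines, group means; bars, SD; axes start at 0). The C percent is 79.1 to 86.7 in control libraries, 88.3 to 92.8 in *Pld6* KO and 96.3 to 96.6 in *Dnmt3l* KO.

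The share of MMERVK10C in all retrotransposon RNA was above wild type in *Dnmt3l* KO and overlapped with it in *Pld6* KO. MMERVK10C made up 9.81% to 9.98% of the summed RPM of all subfamilies in *Dnmt3l* KO, above the 3.88% and 5.36% of wild type. The *Pld6* KO libraries had 3.91% to 8.27%, which overlapped with wild type at 4.63% to 7.82%, and *Pld6* heterozygotes had 7.16% to 10.7%. The means were 9.87% in *Dnmt3l* KO and 4.62% in its wild type, and 5.77% in *Pld6* KO and 5.80% in its wild type. This share was not tested.

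No member passed the threshold between heterozygous and wild-type spermatogonia in either line, as with 0% of all tested subfamilies in both, and none had an unadjusted p under 0.05 in limma. The lowest adjusted p was 0.95 in *Dnmt3l* and 0.624 in *Pld6* heterozygotes. MMERVK10C had a log2 difference of 0.09 (95% interval -0.49 to 0.68) and 0.42 (95% interval -0.10 to 0.94). The wild types of both lines were also compared, and no member passed, while 0.877% of all tested subfamilies did. At an unadjusted p under 0.05 there were 2 members among 8 of the 114, RLTR10A and RLTR10C, higher in *Dnmt3l* wild type by 0.55 and 0.40 on the log2 scale.

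The subfamilies outside the group whose log2 level over the 19 libraries was most like that of MMERVK10C were IAPA_MM (Pearson r = 0.943), RLTR1B-int (0.941) and IAPEz-int (0.939). For RLTR10C they were the IAP LTRs IAPLTR1a_Mm (0.967), IAPLTR2_Mm (0.960) and IAPLTR2a (0.960). MMERVK10C and RLTR10C had r = 0.978, and MMERVK10C and MMERVK10D3_I had r = -0.66. The 19 points share their genotype groups. After the group means were removed the correlations of MMERVK10C were 0.581 with RLTR10C, 0.529 with RLTR1B-int, 0.477 with MMERVK10D3_I, 0.076 with IAPA_MM and -0.31 with IAPEz-int. Those of RLTR10C were -0.20 with IAPLTR1a_Mm, 0.32 with IAPLTR2_Mm and 0.13 with IAPLTR2a. In *Pld6* KO replicate 5, MMERVK10C was at its highest of the line, 600 RPM, and IAPEz-int, an IAP internal region, had its lowest value among the *Pld6* KO libraries, 448 RPM. The rest of these had 1272 to 1523 RPM of IAPEz-int.

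Other internal regions of the ERVK class gave the setting. Of 27 listed, 18 were tested, and 9 rose and none fell in *Dnmt3l* KO, with a median log2 fold change of 0.79. In *Pld6* KO 8 rose and none fell, with a median of 0.11. IAPEz-int had the largest rise in both, 6.31 (standard error 0.37) and 3.87 (standard error 0.29), above that of MMERVK10C. The difference between the mutants passed the threshold upwards for IAPEz-int (2.44) and downwards for IAPEy-int (-2.14), which rose in *Pld6* KO only by the test in each mutant. None of these 18 passed the threshold downwards in *Dnmt3l* KO, as MMERVK10D3_I did. The lowest of them was IAPEy-int at -0.39 (standard error 0.25, adjusted p = 0.238 from limma), so a smaller fall in it is not excluded.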

How the data were processed

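The deposited values are RPM, reads scaled by the authors to mapped reads, for each retrotransposon subfamily and library. Single 50-bp reads of directional poly(A) libraries had been mapped onto consensus sequences with hisat2. The hisat2 version is not given in the sources used here, nor is the treatment of reads that match several consensus sequences, so reads of closely related members could be split between them. Trim Galore and mm10 are named in the submitters' processing notes. Of the distinct non-zero values under 1 RPM in a library, between 29.7% and 80.0% lay on 1 common step (tolerance 0.006 RPM). Read counts were therefore not recovered and no count test was run.

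Groups followed the labels. Subfamilies with at least 1 RPM in at least 2 libraries (114 of 259) were compared with limma 3.58.1 (R 4.3.3; lmFit, eBayes with trend) on log2(RPM + 1) over all 19 libraries in 6 groups, with Benjamini-Hochberg adjustment and a threshold of 0.05. A fold is (mean RPM + 1) over (mean RPM + 1). Within-library ratios on RPM + 1 were tested by exact permutation over libraries (scipy 1.17.1), adjusted over 6. The scripts were tested on simulated data. Alternatives were pseudocounts of 0.1 and 0.5, no filter, a mean of at least 5 RPM, rescaling by median ratios, only the groups compared, no trend, a replicate block, other controls and leaving out each library.

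All 10 members are reported. Members past the threshold in a KO comparison, and the C and D3 members, have their values per library. The 3 most similar subfamilies and a list of 27 other ERVK internal regions come from outside. The members and lists were chosen with earlier results of these data known. No p-value covers the list as a set, and no sequence is shown.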

Additional observations from a re-analysis of the deposited data

Results flagged for a closer look

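The *Dnmt3l* KO effect exceeded the *Pld6* KO effect for both C members, by 1.31 on the log2 scale for MMERVK10C (standard error 0.36, adjusted p = 0.0216 from limma) and by 0.75 for RLTR10C (standard error 0.23, adjusted p = 0.0400). All 3 *Dnmt3l* KO libraries were above all 5 *Pld6* KO libraries for both, a comparison of levels across lines. The RLTR10C call was lost with pseudocounts of 0.1 and 0.5, with no filter, after rescaling and with several single libraries left out. RLTR10C was also higher in *Dnmt3l* than in *Pld6* wild type, by 0.40 (unadjusted p = 0.0375, adjusted p = 0.611 from limma).

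RLTR10E was at 0.39 RPM in *Pld6* KO replicate 3 and was listed at 0 in the other 4 *Pld6* KO libraries, so that 1 library held the whole range of the group. This was 1 flag among 13 values examined, all in *Pld6* KO, the only group large enough for the check. The nominal rate of about 1 chance flag in 20 groups does not hold here. With 4 libraries at 0, any value above 0 in the remaining library is flagged. The value of 0.39 RPM is below the filter of 1 RPM.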

How the results depend on the processing

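The rise of MMERVK10C and RLTR10C stayed past the threshold in both mutants under all other settings and with each library left out, at 2.28 to 3.03 and 1.30 to 2.16 in *Dnmt3l* KO and at 1.11 to 1.78 and 0.71 to 1.28 in *Pld6* KO. A mean of at least 5 RPM left fewer members to test, and 4 were called in *Dnmt3l* KO (3 up, 1 down) and 3, all up, in *Pld6* KO, beside 36 up and 4 down, and 30 up and 0 down, of all 62 tested. The count of members whose effect differed between the mutants fell to 1 with a pseudocount of 0.1 or 0.5, with no filter and after rescaling, was 4 with pooled controls without *Pld6* heterozygous replicate 1 (chosen after seeing the data), and was 0 to 2 with a library left out. The RLTR10C difference lost its call with pseudocounts of 0.1 and 0.5 and no filter (0.75 in each, adjusted p = 0.0526, 0.0544 and 0.0553 from limma) and after rescaling (0.59, adjusted p = 0.161), and was 0.66 to 0.81 with a library left out. The MMERVK10C difference was then 1.17 to 1.43, and MMERVK10D3_I in *Dnmt3l* KO was -0.87 to -0.65. MMERVK10D3_I in *Pld6* KO passed after rescaling (-0.68) and against heterozygotes (-0.45), the latter not without *Pld6* heterozygous replicate 1 (-0.40, adjusted p = 0.124). The ratio of MMERVK10C to MMERVK10D3_I in *Pld6* KO passed with pooled controls (1.74). MMERVK10D3_LTR in *Pld6* KO turned negative after rescaling (-0.20), against heterozygotes (-0.30, and -0.10 without replicate 1) and with pooled controls (-0.042). Against heterozygotes the difference between the mutants turned to 0.20 for MMERVK10D3_LTR (0.0042 without replicate 1), 0.28 for RLTR10 (0.16 without replicate 1, 0.044 with pooled controls) and -0.050 for RLTR10D. The cause of these changes was not tested. A fit with 1 *Dnmt3l* wild type left assumed that it varied like the other groups.

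Replicate numbers are shared between groups. Deviations of libraries with the same number had r from -0.30 to 0.55 over 16 pairs, 9 of them above 0.1. All pairs of the *Dnmt3l* line were positive, from 0.04 to 0.55, and those of the *Pld6* line went from -0.30 to 0.46. A library correlated best with its own number in 14 of 28 cases, each a choice among 3 or 5 libraries. Many pairs enter this count from both sides, and it was not tested against chance. As not every pair in either line was above 0.1, the numbers were not taken as pairs, and shared deviations were not excluded. With the replicate number as a block, 7 members rose and 1 fell in *Dnmt3l* KO (42 and 2 of all 114), 5 rose in *Pld6* KO (33 up, 0 down) and 2 differed upwards between the mutants (9 up, 5 down). RLTR10D lost its call in *Pld6* KO (0.60, adjusted p = 0.155), and MMERVK10D3_LTR there turned to -0.10. Depth is unknown, so values under 1 RPM, and those of RLTR10A, RLTR10B2 and RLTR10D in controls, have no stated counting error.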
